A study of Mus musculus with 4 samples.

Results

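A set of 10 genes for histone lysine demethylases other than those of H3K27 was followed, Kdm1a, Kdm2a, Kdm2b, Kdm3a, Kdm3b, Kdm4a, Kdm4b, Kdm4c, Kdm5a and Kdm5b, taken by symbol from the 22492 gene symbols in the deposited tables. The set does not hold all such genes, and further ones are listed below. All 10 were found, with 1 row each. RNA was measured by polyA RNA sequencing in cultures of hippocampal neurons from newborn CD1 mice, an outbred strain, with 1 library for each of 4 conditions. The conditions were a lentivirus carrying an shRNA against Kdm6b with bicuculline and 4-aminopyridine (shRNA, Bic/4AP), the same shRNA left untreated (shRNA, untreated), the empty pLKO.1 vector with the drugs (vector, Bic/4AP) and the empty vector left untreated (vector, untreated). Every culture, controls included, was infected with a lentivirus on day 4 in vitro and harvested on day 11. The drugs were given at 50 µM bicuculline (read here as micromolar from the labels) and 2.5 mM 4-aminopyridine for 3 h. The first blocks GABA-A receptors and the second potassium channels, so that excitatory firing in the culture increases. A single hairpin was used, set against a vector without one.

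Histone lysine demethylases remove methyl groups from histone tails. Kdm1a (LSD1) is a FAD-dependent amine oxidase that acts on mono- and dimethylated H3K4 within the CoREST corepressor complex. The other 9 carry a JmjC domain, which uses iron, oxygen and alpha-ketoglutarate. Among them Kdm3a and Kdm3b act on H3K9, the Kdm4 enzymes on H3K9 and H3K36, Kdm2a and Kdm2b on H3K36, and Kdm5a and Kdm5b on H3K4. Methylation at H3K9 is known for silent chromatin, at H3K4 for promoters and at H3K36 for transcribed gene bodies.

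A promoter window is shown for Kdm3a and for Kdm4a. These genes stood on opposite sides in the stimulated cultures, Kdm3a higher and Kdm4a lower. The windows were picked because they hold the AP-1 word TGANTCA, the site of Fos and Jun dimers. The sequences are RefSeq's (GRCm38.p6, a later build than the mm9 of the expression tables), 250 bases up to the base before an annotated start, on the minus strand, 5′ to 3′, with the AP-1 word in capitals. The windows are chr6:71632687-71632936 for Kdm3a and chr4:118180044-118180293 for Kdm4a.

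Kdm3a: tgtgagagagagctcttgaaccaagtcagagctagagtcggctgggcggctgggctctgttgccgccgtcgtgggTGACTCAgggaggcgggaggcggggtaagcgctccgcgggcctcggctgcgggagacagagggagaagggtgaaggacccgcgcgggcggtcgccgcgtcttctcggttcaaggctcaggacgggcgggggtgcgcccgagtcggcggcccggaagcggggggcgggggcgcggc

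Kdm4a: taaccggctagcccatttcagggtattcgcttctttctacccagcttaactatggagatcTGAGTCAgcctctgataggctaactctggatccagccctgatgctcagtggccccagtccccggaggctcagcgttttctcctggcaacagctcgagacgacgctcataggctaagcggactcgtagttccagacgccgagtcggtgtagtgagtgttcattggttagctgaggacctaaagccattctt

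The word begins 175 bases before the annotated start used for the Kdm3a window and 190 bases before that used for Kdm4a. The other Kdm3a windows, chr6:71609140-71609389 and chr6:71632918-71633167, hold no TGANTCA. The word shown for Kdm3a lies downstream of the start that belongs to chr6:71632918-71633167. Windows were matched for 6 of the genes (Kdm1a, Kdm2b, Kdm3a, Kdm4a, Kdm4c and Kdm5b), 12 windows in all, since a gene can have several starts. Kdm3b was left out before the matching, so whether it has a window or any of these words was not examined. TGANTCA was found in 2 of the 12, against 6.75% of 32851 windows of all genes. Each word was read on both strands. The full cyclic AMP response element TGACGTCA was in none of the 12 (1.55% of all windows), and its partial form TGACG, which the full element contains, was in windows of Kdm2b, Kdm4c and Kdm5b (17.8%). The hypoxia-inducible factor core ACGTG was in windows of Kdm4c and Kdm5b (16.6%), and GCGTG in windows of Kdm2b, Kdm3a, Kdm4c and Kdm5b (28.2%). A match describes the letters in a window and not a bound site.

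Levels are given as FPKM, fragments scaled to transcript length and library size, so genes can be set side by side. The ranges after them are the authors' lower and upper bounds, which cover counting and read assignment in 1 library and not the variation between cultures. With 1 library per condition no difference was tested, and every comparison describes 4 cultures. Differences are in log2(FPKM + 1). A gene was called when it differed by at least 1.2-fold on that scale (0.26) with bounds that did not overlap, and it was compared when it reached an FPKM of 1 in at least 1 of the 2 libraries. Between 12976 and 13141 genes reached an FPKM of 1 per library. Total fragment counts were not used here, and for genes at an FPKM of 5 or more the upper bound lay, at the median, above the value by 4.29% (shRNA, Bic/4AP), 4.18% (shRNA, untreated), 4.44% (vector, Bic/4AP) and 4.26% (vector, untreated). The hairpin's target Kdm6b, an H3K27 demethylase, stood at 4.83 FPKM (shRNA, Bic/4AP), 2.73 (shRNA, untreated), 13.1 (vector, Bic/4AP) and 6.74 (vector, untreated), which fits the labels. The immediate-early gene Fos stood at 765 and 15.3 FPKM in shRNA cultures with Bic/4AP and untreated, and at 771 and 12.5 FPKM in vector cultures. Markers of neurons and of other cells were both present. The 8 neuronal markers summed to 1244 to 1751 FPKM and the 6 astrocyte markers to 2275 to 2650 FPKM over the 4 libraries, with Gfap, an astrocyte filament gene, at 1514 to 1767 FPKM. In bulk RNA, fewer cells of a type and less RNA per cell cannot be told apart.

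All 10 demethylase genes were expressed in all 4 libraries, between 6.52 and 45.0 FPKM. Kdm1a was the most abundant in every library. It stood at 33.4 FPKM (32.4 to 34.4) in the shRNA, Bic/4AP culture, 35.96 (34.9 to 37.0) in the shRNA, untreated culture, 41.2 (40.1 to 42.4) in the vector, Bic/4AP culture and 45.0 (43.9 to 46.2) in the vector, untreated culture. Its share of the summed FPKM of the 10 genes was 21.4%, 21.2%, 26.1% and 27.2% in that order of libraries. Its bounds did not reach those of the next gene in any library.

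Kdm5a was the least abundant, at 7.14 FPKM (6.90 to 7.37) with shRNA and Bic/4AP, 6.76 (6.54 to 6.99) with shRNA untreated, 6.70 (6.46 to 6.94) with vector and Bic/4AP and 6.52 (6.30 to 6.75) with vector untreated. Only in the vector, Bic/4AP library did its bounds overlap those of the gene above it, Kdm4c. Kdm4c and Kdm3b filled the 2 places above it in every library. The sum over the 10 genes was 156 and 170 FPKM in shRNA cultures with Bic/4AP and untreated, and 158 and 165.5 FPKM in vector cultures. Kdm3a made up 15.03% and 9.27% of that sum in shRNA cultures with Bic/4AP and untreated, and 14.9% and 8.09% in vector cultures.

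The second place changed with treatment. In both stimulated cultures it belonged to Kdm3a, whereas in the untreated cultures it belonged to Kdm4a with the hairpin and to Kdm4b with the vector. Kdm3a ranked 6 of 10 in the shRNA, untreated library, with bounds that overlapped those of Kdm2a above it, and 7 of 10 in the vector, untreated library, apart from both neighbours. Kdm4a and Kdm4b overlapped each other in the vector, untreated library, and Kdm4a and Kdm5b in both stimulated libraries.

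**Figure D1:**
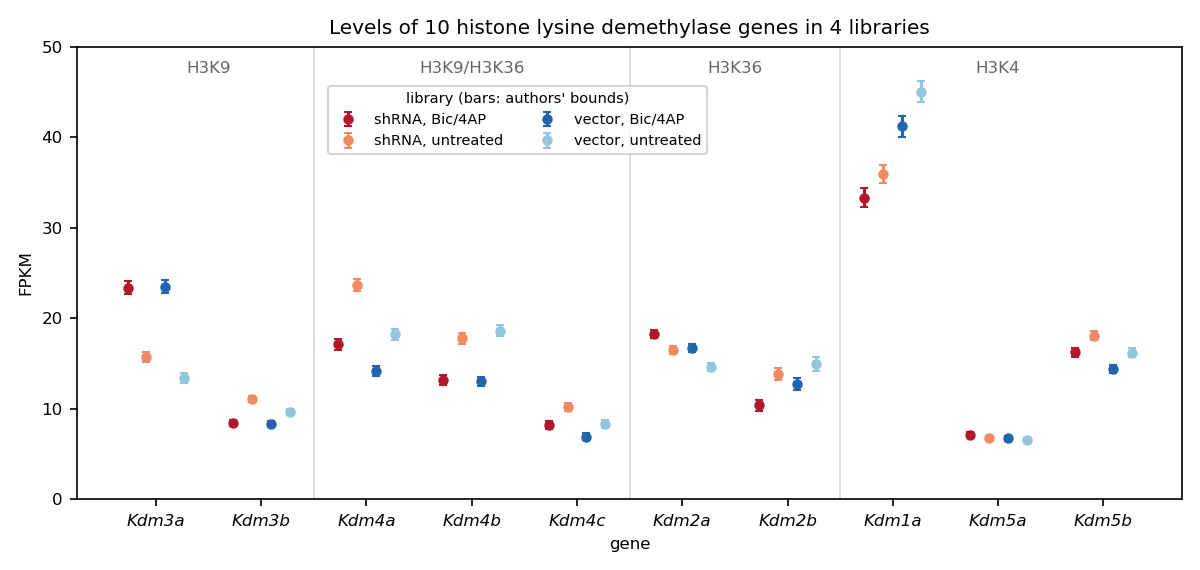
FPKM of the 10 demethylase genes (vertical axis, from 0) in each of the 4 libraries, grouped by the histone mark they act on; points are single libraries and bars the authors' bounds. Kdm1a lies highest at 33.4 to 45.0 FPKM, Kdm3a is at 23.4 and 23.5 FPKM in the stimulated cultures and 15.7 and 13.4 FPKM in the untreated ones, and Kdm5a hardly varies.

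The firing comparison asked how the genes differ after 3 h of Bic/4AP, separately in shRNA and in vector cultures. The H3K9 demethylase gene Kdm3a was called higher, and Kdm4a and Kdm4b were called lower, in both backgrounds, while Kdm4c was called lower in shRNA cultures and not in vector cultures. Kdm3a lies on chromosome 6 from 71538966 to 71582899 (mm9). It stood at 23.4 FPKM (22.7 to 24.1) with Bic/4AP and 15.7 (15.2 to 16.3) untreated in shRNA cultures, and at 23.5 FPKM (22.8 to 24.2) with Bic/4AP and 13.4 (12.8 to 13.95) untreated in vector cultures. Both stimulated libraries were above both untreated ones, with bounds that did not overlap. The FPKM ratio of Bic/4AP to untreated was 1.49 in shRNA cultures (difference 0.54, from 0.45 to 0.63 at the bounds) and 1.76 in vector cultures (0.77, from 0.67 to 0.87). These differences were larger than those of 95.3% and 96.7% of all genes compared.

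Of the 10 genes, 1 was called higher and 5 lower in shRNA cultures, where 9.53% of 13320 genes were called higher and 18.5% lower. In vector cultures 1 was called higher and 2 lower, where 13.1% of 13217 genes were called higher and 21.8% lower. The gene called higher was Kdm3a in both. No member was 2-fold apart on the log2(FPKM + 1) scale, against 2.24% and 2.5% of all genes in shRNA and vector cultures. The median of the 10 differences was -0.21 in shRNA and -0.17 in vector cultures, beside -0.08 and -0.07 over all genes, so part of the lean to lower values was shared by the whole table. The split of calls over all genes depended on scaling. With median-ratio scaling 1737 genes were higher and 1515 lower in shRNA cultures, in place of 1270 and 2464, and 2311 higher and 2054 lower in vector cultures, in place of 1736 and 2885. Upper-quartile scaling gave 1502 and 1879 in shRNA cultures.

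Kdm3b, the closest relative of Kdm3a in the set, stood on the other side. It stood at 8.38 FPKM (8.06 to 8.70) with Bic/4AP and 11.1 (10.7 to 11.4) untreated in shRNA cultures, and at 8.34 FPKM (8.01 to 8.67) with Bic/4AP and 9.66 (9.32 to 10.003) untreated in vector cultures. Its difference was -0.36 in shRNA cultures, which was called but not with a pseudocount of 5 (-0.263), and -0.19 in vector cultures, which was under the 1.2-fold limit. The FPKM ratio of Kdm3a to Kdm3b was 2.79 with Bic/4AP and 1.42 untreated in shRNA cultures, and 2.82 with Bic/4AP and 1.39 untreated in vector cultures. In each treatment the 2 backgrounds therefore had nearly the same balance of these H3K9 demethylase transcripts, and the ratios of stimulated and untreated cultures did not overlap at their bounds.

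The Kdm4 genes, whose products act on trimethylated H3K9 and on H3K36, lay below 0 in both backgrounds. Kdm4b (chromosome 17, 56465473 to 56542296) stood at 13.2 FPKM (12.7 to 13.7) with Bic/4AP and 17.8 (17.2 to 18.3) untreated in shRNA cultures, and at 13.0 FPKM (12.5 to 13.5) and 18.6 (18.02 to 19.2) in vector cultures. The stimulated cultures held 74.1% of the untreated level with shRNA and 70.0% with vector. Kdm4b was the lowest of the 10 in vector cultures, with a difference of -0.48 (percentile 6.83 of all genes), and stood at -0.41 in shRNA cultures (percentile 8.06).

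Kdm4a (chromosome 4, 117809609 to 117852648) stood at 17.1 FPKM (16.5 to 17.7) with Bic/4AP and 23.7 (23.0 to 24.4) untreated in shRNA cultures, and at 14.1 FPKM (13.6 to 14.7) and 18.2 (17.6 to 18.8) in vector cultures. Its difference of -0.45 in shRNA cultures was the lowest of the 10 there, and it was -0.34 in vector cultures. Kdm4c differed less, at 8.19 FPKM with Bic/4AP and 10.2 untreated in shRNA cultures (-0.28, called) and 6.89 and 8.31 FPKM in vector cultures (-0.24, not called, though called with a pseudocount of 0.1 at -0.27 and with common-sum scaling at -0.264). The Kdm4c call was lost in shRNA cultures under median-ratio (-0.20) and upper-quartile scaling (-0.23) and with a pseudocount of 5 (-0.20).

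The H3K36 demethylase genes differed in sign. Kdm2b, whose product also brings a variant Polycomb complex to CpG islands, stood at 10.4 FPKM (9.76 to 11.0) with Bic/4AP and 13.8 (13.1 to 14.5) untreated in shRNA cultures, a difference of -0.38 that was called, and at 12.8 FPKM (12.1 to 13.4) and 14.9 (14.2 to 15.7) in vector cultures, a difference of -0.21 that was not. Kdm2a, its paralogue, was at 18.3 FPKM with Bic/4AP and 16.5 untreated in shRNA cultures (0.14) and at 16.7 and 14.6 FPKM in vector cultures (0.18). Its bounds did not overlap in either background, but it stayed under 1.2-fold in both.

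No H3K4 demethylase gene was called in either background. Kdm1a had differences of -0.11 in shRNA and -0.13 in vector cultures, and Kdm5b of -0.15 and -0.16, with bounds apart in each case. Kdm5b stood at 16.2 FPKM with Bic/4AP and 18.05 untreated in shRNA cultures, and at 14.4 and 16.2 FPKM in vector cultures. Kdm5a differed by 0.07 and 0.03, with overlapping bounds in both backgrounds.

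**Figure D2:**
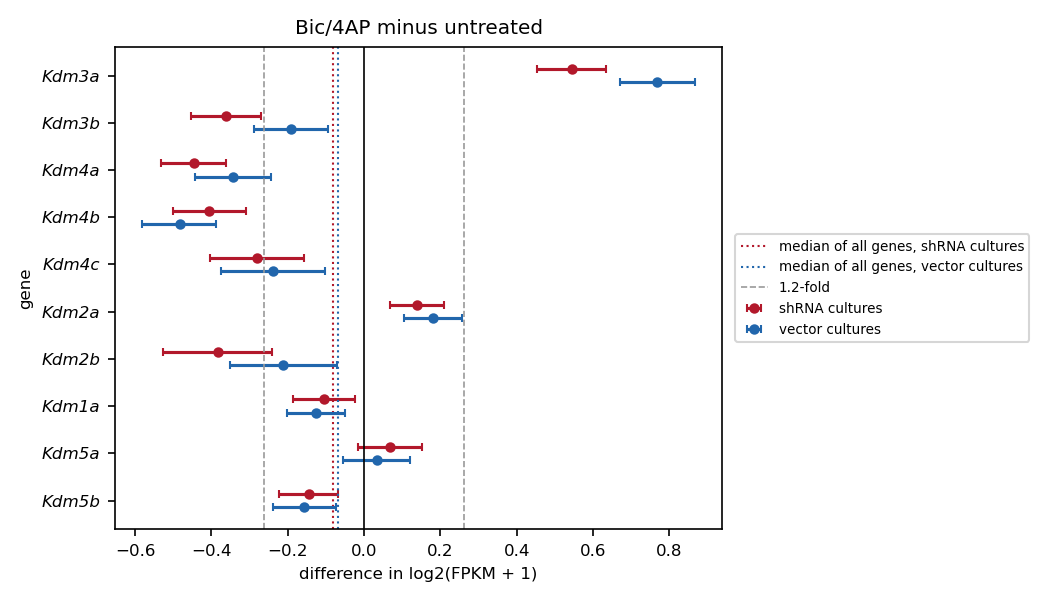
Difference between Bic/4AP and untreated libraries in log2(FPKM + 1) (horizontal axis) for each of the 10 genes, in shRNA and in vector cultures; bars run from the smallest to the largest difference the authors' bounds allow, dashed lines mark 1.2-fold and dotted lines the median of all genes. Kdm3a is the only gene beyond the 1.2-fold line on the right, at 0.54 and 0.77, while Kdm2a and Kdm5a lie right of 0 within that line. The Kdm4 genes lie on the left between -0.24 and -0.48.

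The responses in the 2 backgrounds were also set against each other. For Kdm3a the difference of the responses, shRNA minus vector, was -0.22, and it remained below 0 across the bounds of the 4 libraries (-0.41 to -0.04). This was so for 1 of the 10 genes, while the same held in either direction for 11.7% of 13079 genes. The smaller response came with a higher untreated level with the hairpin and nearly equal stimulated levels, the gain being 7.66 FPKM in shRNA and 10.1 FPKM in vector cultures. For the other 9 genes the difference of responses lay between -0.17 (Kdm2b and Kdm3b) and 0.08 (Kdm4b), with bounds that included 0.

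Cell type markers differed beside these values. Summed neuronal markers stood at 1244 FPKM with Bic/4AP and 1407 untreated in shRNA cultures, with 1 of 8 called higher and 2 lower, and at 1404 and 1751 FPKM in vector cultures, with 4 called lower. Summed astrocyte markers stood at 2650 and 2328 FPKM in shRNA cultures and 2542 and 2275 FPKM in vector cultures, with 0 of 6 called in either. These counts stand against 9.53% of all genes called higher and 18.5% lower in shRNA cultures, and 13.1% and 21.8% in vector cultures. The astrocyte and neuronal lists had no member at 0. The part of these marker differences in the demethylase values was not tested.

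Further demethylase genes outside the set were listed to place Kdm3a among its relatives. Of the 12 compared in shRNA cultures, 5 were called higher with Bic/4AP and 1 lower, and of 11 in vector cultures 6 were called higher and 0 lower. The shares of all genes called higher and lower were 9.53% and 18.5% in shRNA and 13.1% and 21.8% in vector cultures. Jmjd1c, the third gene of the Kdm3 family by sequence, had the largest difference of this list in both backgrounds. It stood at 22.8 FPKM with Bic/4AP and 12.3 untreated in shRNA cultures (0.84) and at 24.0 and 12.1 FPKM in vector cultures (0.93). Kdm6b was next, with 0.64 and 0.87 in shRNA and vector cultures. At the low end stood the Y-linked Kdm5d, at -0.17 and -0.19 in shRNA and vector cultures, and Jmjd5, at -0.44 in shRNA cultures. Jmjd5 was near the lower limit for comparison, at 0.661 FPKM with Bic/4AP and 1.26 untreated in shRNA cultures. In vector cultures Jmjd5 was also lower with Bic/4AP, at 0.504 and 0.920 FPKM, but was not compared because both values were under 1 FPKM. The other genes called higher in both backgrounds, named after their values were seen, were Phf8 (0.63 in shRNA and 0.65 in vector cultures), Jhdm1d (0.64 and 0.53), both of the PHF8 subfamily of demethylases, and the Y-linked Uty (0.55 and 0.46).

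Of 9 other JmjC genes, 1 was called higher and 2 lower in each background. The shares of all genes called higher and lower were 9.53% and 18.5% in shRNA and 13.1% and 21.8% in vector cultures. Jarid2, a Polycomb partner whose JmjC domain lacks demethylase activity, stood at 12.7 FPKM with Bic/4AP and 6.47 untreated in shRNA cultures (0.88) and at 9.84 and 5.30 FPKM in vector cultures (0.78). The lower ones were 2410016O06Rik (-0.41 and -0.49 in shRNA and vector cultures) and Jmjd4 (-0.40 and -0.39).

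Partners of Kdm1a in CoREST complexes were also listed. Of 11 compared, 6 were called lower in each background, and 0 higher in shRNA and 1 higher in vector cultures. Over all genes, 18.5% were called lower and 9.53% higher in shRNA cultures, and 21.8% and 13.1% in vector cultures, a lean that changed with scaling. The CoREST scaffold gene Rcor2 was at 2.33 FPKM with Bic/4AP and 4.06 untreated in shRNA cultures (-0.61) and at 2.32 and 4.32 FPKM in vector cultures (-0.68). Rcor3 was at -0.59 and -0.61, and Zmym2, a zinc finger partner of the complex, at -0.61 and -0.59. Rcor1, the founding CoREST gene, was on the other side, at 0.26 in shRNA cultures, just under the limit, and 0.29 in vector cultures, where it was called. Of 8 partners of Kdm2b in variant Polycomb complexes, 1 was called higher and 1 lower in each background. These were Rybp (0.45 and 0.46 in shRNA and vector cultures) and Ring1, which encodes a RING1 ubiquitin ligase subunit (-0.49 and -0.28).

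Enzymes that place the same marks were listed beside them, and their counts stand against the 18.5% of all genes called lower and 9.53% called higher in shRNA cultures, and 21.8% and 13.1% in vector cultures, a lean that changed with scaling. Of 7 H3K4 methyltransferase genes, 5 were called lower in shRNA and 4 in vector cultures and 0 higher in either, with Wbp7, an MLL-family gene, at -0.43 and -0.42. Of 6 H3K9 methyltransferase genes, 1 was called higher and 2 lower in shRNA cultures, and 2 higher and 3 lower in vector cultures. Ehmt1, the GLP enzyme of H3K9 dimethylation, was at -0.50 in both, and Suv39h2 at 0.38 and 0.47. Of 7 H3K36 methyltransferase genes, 1 was called lower in shRNA and 2 in vector cultures and 0 higher in either, with Nsd1 lowest at -0.40 and -0.57. Medians of the 3 lists were -0.28, -0.15 and -0.21 in shRNA cultures and -0.30, -0.14 and -0.21 in vector cultures, in the order H3K4, H3K9 and H3K36.

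Kdm3a and Kdm4b are known in human and mouse cells as hypoxia-inducible genes, and other such targets were listed beside them. Of 13 compared, 4 were called higher and 0 lower with Bic/4AP in shRNA cultures, and 3 higher and 4 lower in vector cultures. Over all genes, 9.53% were called higher and 18.5% lower in shRNA cultures, and 13.1% and 21.8% in vector cultures. The glucose transporter gene Slc2a1 (0.56 and 0.72 in shRNA and vector cultures) and the adrenomedullin gene Adm (0.74 and 0.63) were at the high end in both. Bnip3, a mitophagy gene, was at -0.12 and -0.62, and Pdk1, a kinase of pyruvate dehydrogenase, at -0.02 and -0.39. The list had medians of 0.03 and -0.08. Of 9 genes for enzymes that make or use alpha-ketoglutarate and related metabolites, 0 were called in shRNA cultures and 1 lower in vector cultures, Idh1, at -0.27.

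**Figure D3:**
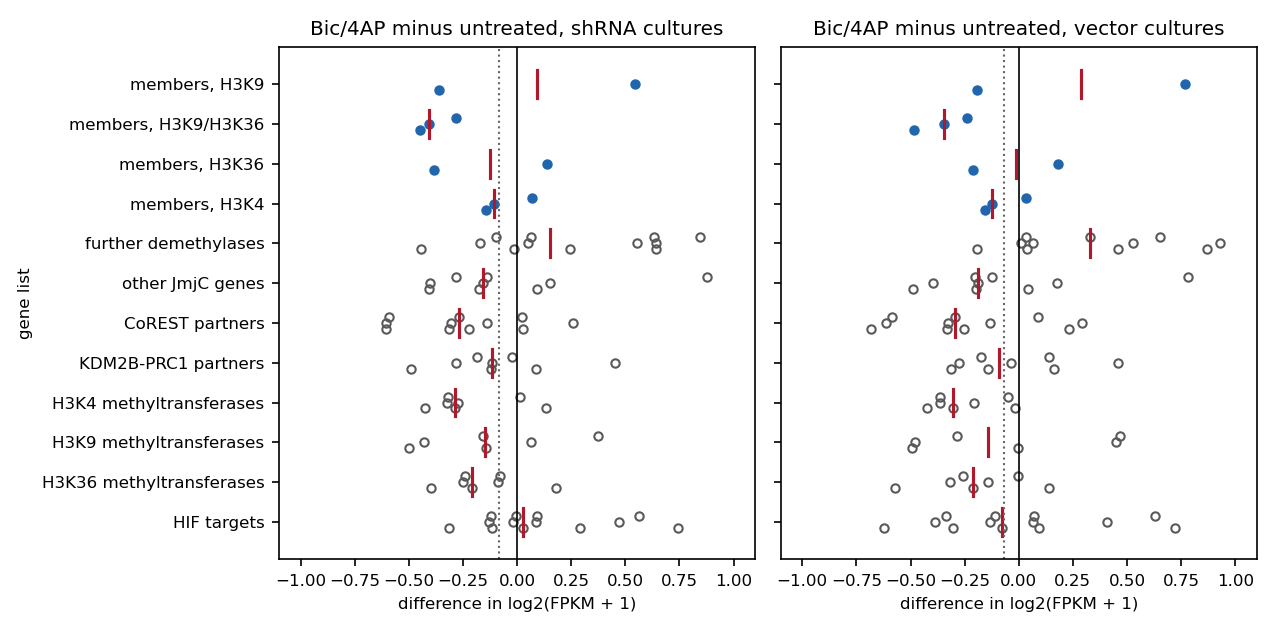
Differences between Bic/4AP and untreated libraries in log2(FPKM + 1) (horizontal axis) for the 10 demethylase genes by mark (filled circles) and for related gene lists (open circles), in shRNA (left) and vector cultures (right); red bars are list medians, which with 2 members lie between them, and dotted lines the median of all genes. Further demethylase genes reach 0.84 and 0.93 (Jmjd1c). Most CoREST partners and methyltransferase genes lie left of 0, as do 65.3% of all genes compared in shRNA cultures and 59.7% in vector cultures.

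The hairpin comparison asked how the other demethylase genes differ when Kdm6b is knocked down. Kdm1a was lower in the shRNA cultures and was called in both treatments. Kdm4a, Kdm4c, Kdm2a and Kdm5b were higher with bounds apart in both treatments, but none of them was called in both. The share of all genes with bounds apart alone is not given here. Kdm1a (chromosome 4, 136106448 to 136158638) stood at 33.4 FPKM with shRNA and 41.2 with vector under Bic/4AP, and at 35.96 FPKM with shRNA and 45.0 with vector untreated. Both shRNA libraries were below both vector libraries. The shRNA cultures held 80.9% of the vector level with Bic/4AP (difference -0.30, from -0.38 to -0.22 at the bounds) and 79.8% untreated (-0.32, from -0.39 to -0.24). Among all genes compared these differences lay at percentiles 9.03 and 9.65.

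Kdm4a stood at 17.1 FPKM with shRNA and 14.1 with vector under Bic/4AP, a ratio of 1.21 (difference 0.258, just under the 1.2-fold limit of 0.263, and 0.27 and called with a pseudocount of 0.1), and at 23.7 with shRNA and 18.2 with vector untreated, a ratio of 1.30 (0.36, called). The shRNA, untreated culture held the most Kdm4a of the 4 and the vector, Bic/4AP culture the least. Kdm4c followed the same order, at 8.19 FPKM with shRNA and 6.89 with vector under Bic/4AP (0.22) and 10.2 with shRNA and 8.31 with vector untreated (0.263, called, but under the limit with each of 3 other scalings, from 0.21 to 0.261). Kdm4b did not share this, with overlapping bounds in both treatments (0.01 with Bic/4AP and -0.06 untreated). The FPKM ratio of Kdm4a to Kdm4b was 1.30 with shRNA and 1.09 with vector under Bic/4AP, and 1.33 with shRNA and 0.978 with vector untreated.

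Of the 10 genes, 0 were called higher and 2 lower with shRNA under Bic/4AP, where 13.3% of 13240 genes were called higher and 10.2% lower. Untreated, 2 were called higher and 1 lower, where 17.1% of 13295 genes were called higher and 11.8% lower. None was 2-fold apart, against 0.725% of all genes with Bic/4AP and 1.08% untreated. The median of the 10 differences was 0.05 with Bic/4AP and 0.16 untreated, beside 0.03 and 0.05 over all genes. With median-ratio scaling 1391 genes were higher and 1618 lower under Bic/4AP, in place of 1757 and 1357, and 1733 higher and 1954 lower untreated, in place of 2273 and 1574.

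Kdm2b was the second gene called lower under Bic/4AP, at 10.4 FPKM with shRNA and 12.8 with vector (-0.28, or -0.21 and not called with a pseudocount of 5), whereas untreated it was at 13.8 and 14.9 FPKM with overlapping bounds (-0.11). The 4 libraries therefore ran for Kdm2b, in shRNA, Bic/4AP, shRNA, untreated, vector, Bic/4AP and vector, untreated cultures, at 10.4, 13.8, 12.8 and 14.9 FPKM, with the culture that had both hairpin and drugs lowest. Its paralogue Kdm2a ran the other way, at 18.3, 16.5, 16.7 and 14.6 FPKM in the same order, with that culture highest. The FPKM ratio of Kdm2a to Kdm2b, also in that order, was 1.76, 1.195, 1.31 and 0.979.

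Kdm3a and Kdm3b stood higher with shRNA in untreated cultures, with bounds apart, Kdm3a at 15.7 FPKM with shRNA and 13.4 with vector (0.22) and Kdm3b at 11.1 and 9.66 FPKM (0.18), and neither reached 1.2-fold. Under Bic/4AP their shRNA and vector values were nearly equal (-0.01 and 0.01). Kdm5b was higher with shRNA in both treatments without reaching 1.2-fold (0.16 with Bic/4AP and 0.15 untreated). Kdm5a was at 0.08 and 0.05 with overlapping bounds.

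**Figure D4:**
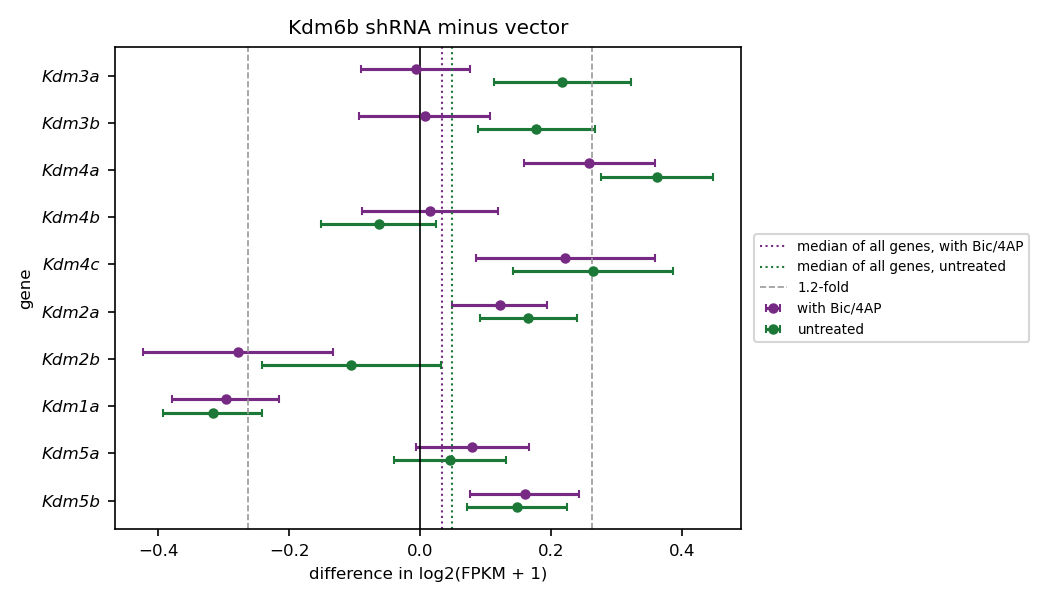
Difference between Kdm6b shRNA and vector libraries in log2(FPKM + 1) (horizontal axis) for each of the 10 genes, with Bic/4AP and untreated; bars run from the smallest to the largest difference the authors' bounds allow, dashed lines mark 1.2-fold and dotted lines the median of all genes. Kdm1a lies left of 0 in both treatments (-0.30 and -0.32) and Kdm4a right of 0 (0.26 and 0.36).

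The comparisons share libraries, so that a high or low value of 1 library enters 2 of them. Among the 11 further demethylase genes compared, 3 were called lower with shRNA in each treatment and 0 higher. Beside the target Kdm6b these were Kdm5d (-0.29 with Bic/4AP and -0.31 untreated) and Phf8 (-0.42 and -0.40), which stood at 6.35 FPKM with shRNA and 8.86 with vector under Bic/4AP and at 3.75 and 5.27 FPKM untreated. Kdm5d was low, at 2.13 FPKM with shRNA and 2.82 with vector under Bic/4AP and at 2.52 and 3.37 FPKM untreated. Uty, also Y-linked, lay above 0 and was not called (0.13 with Bic/4AP and 0.04 untreated). Of 9 other JmjC genes, 2 were called higher and 1 lower under Bic/4AP, and 1 higher and 1 lower untreated. Of 8 Polycomb partners of Kdm2b, 0 were called under Bic/4AP and 1, Rnf2, untreated (0.28). The shares of all genes called higher and lower with shRNA were 13.3% and 10.2% under Bic/4AP and 17.1% and 11.8% untreated.

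No H3K4 or H3K36 methyltransferase gene was called in either treatment, and of the H3K9 methyltransferase genes only Ehmt2 was, untreated (-0.29). Of 13 hypoxia-inducible targets, 2 were called higher and 2 lower under Bic/4AP, and 1 higher and 4 lower untreated. Over all genes, 13.3% were called higher and 10.2% lower under Bic/4AP, and 17.1% and 11.8% untreated. Of 9 genes for enzymes of alpha-ketoglutarate and related metabolites, 3 were called higher in each treatment, Idh1, Idh2 and D2hgdh, and 0 lower. Idh1, which makes alpha-ketoglutarate from isocitrate, stood at 105.5 FPKM with shRNA and 77.2 with vector under Bic/4AP, and at 114 and 93.5 FPKM untreated.

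Cell type markers also differed between shRNA and vector cultures. Neuronal markers summed to 1244 FPKM with shRNA and 1404 with vector under Bic/4AP, and to 1407 and 1751 FPKM untreated, with 4 of 8 called lower in each treatment. Microglial markers summed to 14.6 and 31.5 FPKM under Bic/4AP and to 15.7 and 33.8 FPKM untreated. Among the 5 compared, 3 were called lower under Bic/4AP and 2 untreated, with Tyrobp and C1qa called in both. P2ry12 (0.10 with Bic/4AP and 0.24 untreated) and Aif1 (0.04 and -0.08) were not called. Oligodendrocyte lineage markers summed to 67.4 and 90.2 FPKM under Bic/4AP and 71.1 and 82.4 FPKM untreated. Of the 5 compared, 4 were called lower under Bic/4AP and 3 untreated, and 0 higher in either. Endothelial and mural markers summed to 53.0 and 76.7 FPKM and 58.1 and 66.9 FPKM, most of it Acta2 (50.7 and 73.8 FPKM, and 55.6 and 63.6 FPKM). Pdgfrb and Acta2, the 2 compared, were both called lower under Bic/4AP, and only Pdgfrb was untreated. The endothelial genes Cldn5, Pecam1 and Cdh5 stood at 0.375 FPKM or less in every library and were not compared. Of 6 astrocyte markers, 2 were called higher under Bic/4AP and 0 untreated. Fibroblast markers summed to 19.1 and 20.9 FPKM under Bic/4AP and to 16.1 and 21.7 FPKM untreated. Of these 5 markers, 1 was called lower under Bic/4AP and 3 untreated, and 0 higher in either. Of 7 proliferation markers compared, 5 were called higher and 1 lower in each treatment. Untreated, the FPKM ratio of shRNA to vector was 2.91 for Top2a, 2.83 for Cdk1, 2.69 for Ccnb1 and 3.18 for Birc5. It was 0.42 for Rrm2, the gene called lower. The marker counts stand against 13.3% of all genes called higher and 10.2% lower under Bic/4AP, and 17.1% and 11.8% untreated. Cldn5, an endothelial tight junction gene, was the only marker listed at 0 in a library. The part of these cell type differences in the demethylase values, the lower Kdm1a among them, was not tested.

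Over the 4 libraries the genes varied to different degrees. The highest library was 1.76 times the lowest for Kdm3a, 1.67 times for Kdm4a, 1.48 times for Kdm4c, 1.44 times for Kdm2b and 1.43 times for Kdm4b, and 1.09 times for Kdm5a, the steadiest. Kdm3a, as the gene with the widest range on the log2 scale (0.77), was compared with 12649 other genes for the likeness of its 4 values after centring, measured as the largest deviation in any library. The nearest were Tor1aip1 (0.02), which encodes an inner nuclear membrane protein, the histone gene Hist1h2bc (0.03), and Smad1 (0.04), which encodes a transducer of BMP signals. Smad1 stood at 27.0, 17.9, 25.9 and 15.05 FPKM in the shRNA, Bic/4AP, shRNA, untreated, vector, Bic/4AP and vector, untreated cultures. With 4 values per gene and this many genes, such likeness describes these libraries.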

How the data were processed

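The authors deposited 1 table of FPKM values per library, with lower and upper bounds. CASAVA, TopHat2 and Cufflinks and the mouse build mm9 are named per the submitters' processing notes; the roles of the tools, the annotation and strand handling are not given in the sources used here, so overlapping antisense reads could not be told apart. FPKM depends on what else is in a library. Library preparation was polyA-selected TruSeq, per the labels' protocols. Rows of 42 failed symbols and 730 small RNA symbols were left out, leaving 21720 genes. Differences were taken as log2(FPKM + 1), which understates changes of low genes. Calls needed at least 1.2-fold and bounds apart. With 1 library per condition no test was made. The calling step was tested on simulated data with counting error only and planted changes larger than that of any member. That test does not show how calls near 1.2-fold would hold between cultures. The 10 genes and the gene lists were chosen with earlier results of these data known. Named genes are all members, the extremes of each list, and the 3 genes most like the member of widest range; others named were chosen after their values were seen. Start positions in the tables count from 0 and are printed from 1. Promoter words were searched in RefSeq windows (GRCm38.p6). Alternatives varied the pseudocount, filter, scaling, fold limit and row handling. The results of the CoREST partner list between shRNA and vector cultures are not reported here.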

Additional observations from a re-analysis of the deposited data

How the results depend on the processing

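No paired analysis was possible because each group holds 1 library, and for the same reason no library could be left out. Over the alternatives, 443 of 450 recomputed member differences moved by less than their bounds allow or not at all, and 7 moved more. None that was called changed sign, and 5 uncalled ones near 0 did. The 450 include the filter, row-handling and small RNA alternatives, which could not move any member. Every member has 1 row per table and at least 6.52 FPKM in each library, so those alternatives do not bear on stability. With a fold limit of 1.5, 0 members were called lower in vector or shRNA cultures with Bic/4AP, 0 higher in shRNA cultures with Bic/4AP, 0 higher or lower with shRNA untreated and 0 lower with shRNA under Bic/4AP. With a pseudocount of 5, 3 members were lower with Bic/4AP in shRNA cultures, 1 was higher with shRNA untreated and 1 lower with shRNA under Bic/4AP. All genes lower with Bic/4AP then numbered 1289 in shRNA and 1735 in vector cultures. Genes higher and lower with shRNA numbered 865 and 798 under Bic/4AP, and 1213 and 1022 untreated. With a pseudocount of 0.1, 1 member (Kdm4a) was higher with shRNA under Bic/4AP. With median-ratio, upper-quartile and common-sum scaling alike, 1 member was higher with shRNA untreated. Median-ratio scaling left 1515 genes lower with Bic/4AP in shRNA cultures. The bounds limit precision to counting error, and differences between cultures were not measured.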
